A study of Mus musculus with 2 samples.

Results

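Genes of the palmitoylation cycle were examined: 6 palmitoyltransferases other than the silenced Zdhhc17 (Zdhhc3, Zdhhc5, Zdhhc7, Zdhhc9, Zdhhc18 and Zdhhc20) and 4 enzymes that remove palmitate (Ppt1, Lypla1, Lypla2 and Abhd17a). They were taken by gene symbol from the gene table of all cells, and all 10 were found among its 28523 genes. The data come from metastases in the liver that grew from 4T1 cells (an established murine line of breast cancer without ER, PR or HER2) in female BALB/c mice aged 6 to 8 weeks at day 14 after injection of 250000 cells into the spleen, which was then removed. The injected cells carried a lentiviral hairpin, either scrambled (shSCR) or against Zdhhc17 (shZdhhc17), and only the cancer cells carried it, so all other cells of both libraries were those of the host. Cells from 3 dissociations were pooled per group, and each group is 1 BD Rhapsody library (a microwell capture of single cells). There are no replicates and no test between groups. Expression levels of single genes were not analysed here, so no level of any of the 10 genes is given for a cell type, a neutrophil cluster or a library, and the cell type labels could not be checked against their markers. The values below are the listing of the genes, the depth of each cell group that bounds what could be counted, and the reference sequence of the genes.

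Palmitoylation attaches the fatty acid palmitate to cysteines of a protein by a thioester bond, which holds the protein to a membrane and can be undone. The palmitoyltransferases are membrane proteins named after the Asp-His-His-Cys (DHHC) motif of their catalytic domain, whose cysteine carries the palmitate before it is handed to the substrate. Thioesterases of the serine hydrolase type release it, and their active serine usually sits in a short GXSXG motif, where X is any residue. Ras proteins, adhesion receptors and growth factor receptors are among the known substrates.

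The catalytic motif is shown first, because it is what the 6 transferases share and what sets them apart from the 4 removing enzymes. The lines give 30 bases of coding sequence from the GENCODE M21 transcripts (GRCm38), 5′ to 3′, with the 4 codons of the DHHC motif in capitals.
Zdhhc3: cgcaagatgGATCACCACTGTccttgggtc
Zdhhc5: gaggaatttGACCATCACTGCccttgggta
Zdhhc7: cgaaagatgGACCATCACTGCccgtgggtg
Zdhhc9: gagcgcttcGACCATCACTGCccctgggtg
Zdhhc18: gaacggtttGACCATCACTGCccttgggtg
Zdhhc20: cttaagatgGATCATCACTGTccatgggtg

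Each of the 6 transferases held the motif once in frame, from codon 131 of 715 in Zdhhc5 to codon 211 of 380 in Zdhhc18. Zdhhc5, Zdhhc7, Zdhhc9 and Zdhhc18 spelled it with the same 12 bases, which Zdhhc8 and Zdhhc15 also used. Zdhhc3 shared its spelling with Zdhhc12 and Zdhhc14, and the spelling of Zdhhc20 was used by no other of the 23 family genes that held the motif. All codons for the motif were allowed in the search, on the coding strand and in frame. It was present in 32 of 19670 searched protein-coding genes of the table (0.163%), of which 22 belonged to the family. Among the 24 family genes, the motif was not found in Zdhhc13.

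For the removing enzymes the same length of coding sequence is given with the 5 codons of the GXSXG motif in capitals, the second of 2 matches in Abhd17a.
Ppt1: aatgctattGGCTTCTCCCAGGGAggccag
Lypla1: attttgggaGGATTTTCTCAGGGAggcgcc
Lypla2: gtcctgggtGGCTTCTCGCAGGGTggggcc
Abhd17a: atcctgtatGGCCAGAGCATTGGCactgtg

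The matches began at codon 113 of 306 in Ppt1, 117 of 230 in Lypla1, 120 of 231 in Lypla2 and 188 of 310 in Abhd17a. The first match in Abhd17a began at codon 151. This motif is short and was present in 18.7% of the searched genes, so a match by itself marks no hydrolase. Among the 9 depalmitoylating enzyme genes, the motif was not found in Ppt2. Lypla1 and Lypla2, which encode cytosolic acyl-protein thioesterases, were each other's closest relative among the 9 depalmitoylating enzyme genes, with 63.8% identity over their coding sequences. Identity was counted as identical bases over the longer coding sequence, so pairs of unlike length score lower. Closest here means the highest value of this measure and not descent. Abhd17a, a hydrolase that acts on Ras and on synaptic proteins, was closest to Abhd17c (72.6%). Ppt1, the lysosomal thioesterase lost in infantile neuronal ceroid lipofuscinosis, had its highest identity to Ppt2 (54.4%). This was only slightly above its identity to Abhd17a (53.6%), Abhd17b (53.5%) and Abhd10 (53.4%), so no closest relative of Ppt1 is read from these values.

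Among the transferases, Zdhhc3 and Zdhhc7, both enzymes of the Golgi, were each other's closest relative at 67.3% identity. Zdhhc9, which acts on Ras proteins together with its partner Golga7, and Zdhhc18 had their highest identity with each other, at 58.4%. The next highest values were not far below, 55.2% to Zdhhc2 for Zdhhc9 and 55% to Zdhhc16 for Zdhhc18. Zdhhc14, whose coding sequence is longer, stood lower still, at 51.9% to Zdhhc9 and 51.6% to Zdhhc18. Zdhhc20, an enzyme known to palmitoylate the epidermal growth factor receptor, was closest to Zdhhc2 (66.4%), and Zdhhc5, an enzyme of the plasma membrane, to Zdhhc8 (61.0%). The gene of highest identity to each of the 10 genes was itself listed in both gene tables. No stretch of at least 100 bases with at least 90% identity joined the last 500 bases of any of the 10 transcripts to a relative or a pseudogene. The 1 match of that kind was between Zdhhc5 and Med19, which overlap on opposite strands.

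The 10 genes lie on 8 chromosomes of GRCm38, and all are protein-coding. Zdhhc3 (ENSMUSG00000025786.16) is on chromosome 9 from 123066160 to 123113205, Zdhhc5 (ENSMUSG00000034075.10) on chromosome 2 from 84687970 to 84715180, and Zdhhc7 (ENSMUSG00000031823.14) on chromosome 8 from 120080890 to 120101482. Zdhhc9 (ENSMUSG00000036985.12) is on chromosome X from 48171969 to 48208878, Zdhhc18 (ENSMUSG00000037553.14) on chromosome 4 from 133605299 to 133650154, and Zdhhc20 (ENSMUSG00000021969.8) on chromosome 14 from 57832703 to 57890276. Among the removing enzymes, Ppt1 (ENSMUSG00000028657.14) and Lypla2 (ENSMUSG00000028670.14) are also on chromosome 4, from 122836242 to 122859175 and from 135968224 to 135972626. Lypla1 (ENSMUSG00000025903.14) is on chromosome 1 from 4807788 to 4848410 and Abhd17a (ENSMUSG00000003346.14) on chromosome 10 from 80583654 to 80590341. Ppt1 and Lypla1 are on the plus strand and the other 8 on the minus strand. Coding lengths ran from 693 bases in Lypla1 to 2148 in Zdhhc5.

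For 3 of the 10 genes the last base of the gene lies inside a listed gene on the opposite strand. Zdhhc3 overlaps Tgm4 by 1402 bases, Zdhhc5 overlaps Med19 by 246 and Ppt1 overlaps Cap1 by 129. Rhapsody beads capture RNA by its poly(A) tail, so reads gather at these ends. The overlaps were counted over whole gene spans, introns included. Of the 3, only Zdhhc5 shared at least 100 of the last 500 bases of its principal transcript with its partner. Shorter stretches and other transcripts of Zdhhc3 and Ppt1 were not searched. Whether the counting used strand is not given in the sources used here. Without strand, reads from bases that Zdhhc5 and Med19 share cannot be told apart. Zdhhc9, Zdhhc20 and Lypla2 overlap no other annotated gene. Within Abhd17a lies Gm29093, a listed intronic transcript of the same strand. The other overlapping genes, such as Gm37988 that runs along Lypla1 on the same strand and Gm20388 that covers Zdhhc7 on the other, were not in the gene table.

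All 10 genes were also listed in the gene table of neutrophils, which holds 21544 genes, a share of 75.5% of the table of all cells, or 79.9% of its protein-coding genes. At these backgrounds the listing of 10 of 10 genes is not a result about palmitoylation enzymes. The listing says that a gene was kept in a table over both libraries and not how much of it was present, and the criterion for listing is not given in the sources used here. Of the whole enzyme lists, 23 of 24 palmitoyltransferases were in the table of all cells and 21 in that of neutrophils. Zdhhc25 was in neither, and Zdhhc11 and Zdhhc15 were in that of all cells only. All 9 depalmitoylating enzymes and all 3 accessory protein genes (Golga7, Golga7b and Selenok) were in both.

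None of the 10 genes was among the 1000 most variable genes of all cells, a flag that 3.51% of listed genes carried, nor among the 1000 most variable genes of neutrophils, carried by 4.64%. None of the other 25 listed genes of the 3 enzyme and accessory lists carried either flag. With flags this rare, 0 of 10 is close to what the background gives. The flag ranks genes over all cells together and does not compare the libraries.

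Promoters were compared because listing went with their base composition across the genome. RefSeq windows from 250 bases before to 50 bases after the RefSeq gene start (GRCm38.p6) were matched by symbol for 9 of the 10 genes, all but Lypla1. These starts can differ from those of GENCODE given above. The window of Zdhhc18 (chr4:133633380-133633679) lies inside the gene, whose GENCODE start is at 133650154. That of Zdhhc20 (chr14:57890287-57890586) lies wholly before its GENCODE start at 57890276. A window was called rich in CpG where CpG dinucleotides were at least 0.6 times as frequent as its C and G content predicts (observed over expected) and GC was at least 50%. Among protein-coding genes with 1 window, 57.6% of the 10182 genes in both tables were rich in CpG, against 20.7% of the 2557 in the table of all cells only and 8.61% of the 1986 in neither. Of the 9 palmitoylation enzyme promoters, 8 were rich in CpG. These shares are a description with no test, since genes are not replicates.

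**Figure D1:**
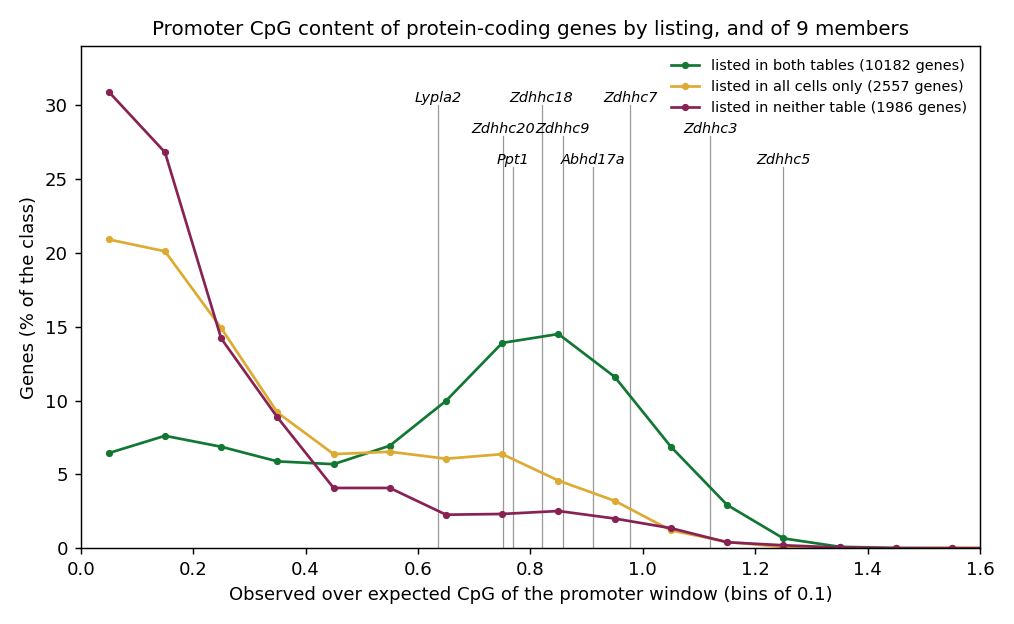
Share of protein-coding genes (%) in each bin of observed over expected CpG of the promoter window, for genes listed in both gene tables (green), in the table of all cells only (yellow) and in neither (purple), with grey lines at the values of 9 palmitoylation enzyme genes. The 9 genes, which are themselves listed in both tables, run from 0.636 for Lypla2 to 1.25 for Zdhhc5. Each bin in this range holds a larger share of the genes of both tables than of the other classes.

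Within the 10 genes the windows of Zdhhc5 and Ppt1 mark the contrast and are shown with each CpG in capitals. The window of Zdhhc5 (GRCm38.p6, chr2:84715115-84715414, minus strand) held 52 CpGs at an observed over expected ratio of 1.25 and a GC content of 75.3%. That of Ppt1 (chr4:122835977-122836276, plus strand) held 13 at a ratio of 0.769 and a GC content of 48.7%, the 1 window of the 9 under the GC limit.
Zdhhc5: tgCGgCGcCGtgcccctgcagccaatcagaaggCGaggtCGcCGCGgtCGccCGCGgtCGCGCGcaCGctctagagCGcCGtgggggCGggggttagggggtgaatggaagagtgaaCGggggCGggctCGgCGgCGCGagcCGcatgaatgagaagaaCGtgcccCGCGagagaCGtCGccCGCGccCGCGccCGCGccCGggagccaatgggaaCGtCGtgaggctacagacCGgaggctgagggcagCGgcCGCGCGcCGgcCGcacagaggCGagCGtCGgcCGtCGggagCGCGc
Ppt1: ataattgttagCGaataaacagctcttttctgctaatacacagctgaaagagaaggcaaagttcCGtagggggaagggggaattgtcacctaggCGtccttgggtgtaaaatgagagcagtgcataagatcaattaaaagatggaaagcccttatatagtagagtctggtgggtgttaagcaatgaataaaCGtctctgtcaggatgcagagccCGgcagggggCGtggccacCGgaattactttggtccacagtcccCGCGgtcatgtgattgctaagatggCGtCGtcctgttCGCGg

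Ppt1 held 3 CpGs in the first 100 bases of the window and 9 in the last 100, which hold the gene start, whereas Zdhhc5 held 17 in each. Among the transferases, Zdhhc3 held 39 CpGs (ratio 1.12), Zdhhc7 25 (0.978), Zdhhc9 20 (0.858), Zdhhc18 36 (0.820) and Zdhhc20 32 (0.752). Among the removing enzymes, Abhd17a held 22 (0.912) and Lypla2 19 (0.636). Of 15 other genes of the lists with 1 window, 11 were rich in CpG. The other 4 were Selenok (0.588), Zdhhc25 (0.191), Zdhhc15 (0.185) and Zdhhc19 (0.0558). Zdhhc25 was missing from both tables and Zdhhc15 from that of neutrophils, while Zdhhc19 and Selenok were listed in both.

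The depth of each cell group sets the level of any of the 10 transcripts that a count of 0 would still allow. A transcript under this limit can still be counted. Unique molecular identifiers (UMIs) count captured molecules, and the libraries held 214842365 (shSCR) and 172527305 (shZdhhc17) of them in 22860 and 21511 cells. The level that a count of 0 would still allow, taken as 3 UMIs of all UMIs of the group, was 0.0371 CPM (UMIs of the gene per 1000000 UMIs of the group) in shSCR cancer cells and 0.0354 in shZdhhc17 cancer cells, the cells that carried the hairpin against Zdhhc17. It was 0.0794 and 0.175 in neutrophils, 0.106 and 0.136 in non-Kupffer macrophages, 0.185 and 0.351 in monocytes, and 0.532 and 0.465 in Kupffer cells. A level of 1 CPM lies above the limit of both libraries in 7 of the 17 types. These limits cover counting error only.

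In rare types the limits were far higher. With all cells they were 26.1 (shSCR) and 40.1 (shZdhhc17) CPM in NK cells and 22.7 and 28.3 in hepatocytes. Cholangiocytes, with 14 and 11 cells, stood at 18.5 and 30. Plasmacytoid dendritic cells stood at 15.6 and 23.4, basophils at 14.9 and 20.3, and B cells at 11.7 and 9.29. T cells were between, at 2.50 and 4.22. Among cells with at least 1925 UMIs, of which B cells had 22 and 27, the limits of B cells rose to 49.1 and 34.6 and that of shZdhhc17 T cells to 7.36. B cells then had the highest limit in shSCR, ahead of NK cells at 36.8. The limit was lower in shSCR in 14 types and lower in shZdhhc17 in cancer cells, Kupffer cells and B cells.

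**Figure D2:**
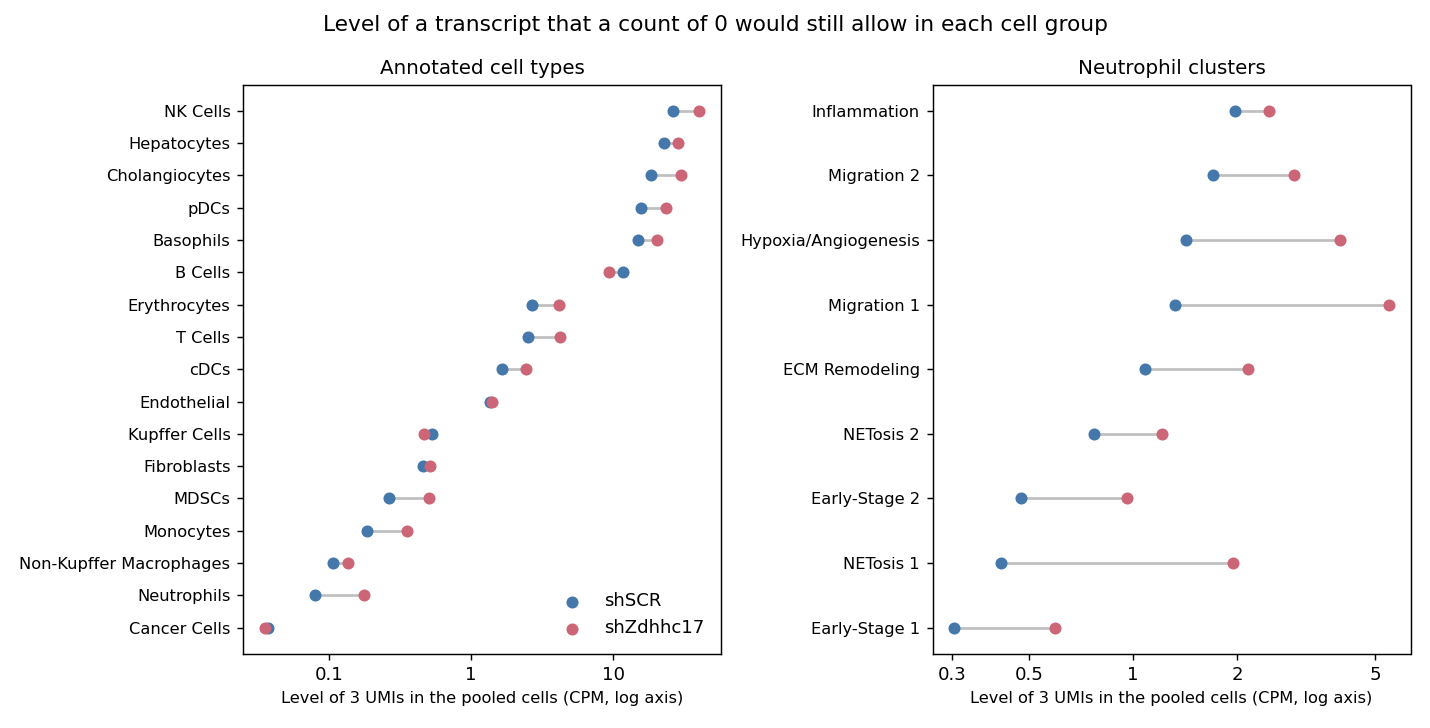
Level in CPM (log axis) that a count of 0 would allow, from 3 UMIs of all UMIs of a group, for the 17 annotated cell types (left) and the 9 neutrophil clusters (right), with 1 point per library (blue shSCR, red shZdhhc17). Cancer cells allow the lowest levels (0.0371 and 0.0354) and NK cells the highest (26.1 and 40.1), and in all 9 neutrophil clusters the red point lies to the right.

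Per cell, a listed gene was on average detected in 11.3% of shSCR and 10.4% of shZdhhc17 cancer cells, from the mean number of detected genes over the 28523 listed. The average was 9.60% and 8.79% in non-Kupffer macrophages, 13.4% and 12.3% in cells annotated as myeloid-derived suppressor cells (MDSCs), 4.31% and 3.09% in T cells and 2.25% in B cells of both libraries. It describes the average gene of the table and not any of the 10 genes. Neutrophils stood at 5.35% in shSCR and 4.41% in shZdhhc17. Among cells with at least 1925 UMIs, the lower quartile of all cells, the order of the libraries turned in neutrophils (7.57% in shSCR and 7.63% in shZdhhc17) and T cells (5.98% and 6.05%), and B cells stood at 4.00% and 4.73%, so no order between the libraries is read from these 3 averages. That limit lies between the library medians of neutrophils (2464 and 1418 UMIs) and of T cells (2051.5 and 1130).

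Depth differed widely among the neutrophil clusters. Early-Stage 1, whose cells had medians of 21152 (shSCR) and 15679 (shZdhhc17) UMIs, allowed levels of 0.304 and 0.596 CPM, and the average of the 21544 genes in the neutrophil table was detected in 19.7% and 17.3% of its cells. Inflammation, with medians of 1175 and 906 UMIs, allowed 1.97 and 2.47, and an average gene was detected in 3.33% and 2.87% of its cells. Migration 1 had the highest limit in shZdhhc17, 5.48 against 1.32 in shSCR, and NETosis 1 stood at 0.414 in shSCR and 1.94 in shZdhhc17. Among neutrophils with at least 1093 UMIs, their lower quartile, the highest limits in shZdhhc17 were those of Hypoxia/Angiogenesis (7.43) and Inflammation (6.61), ahead of Migration 1 (6.43). The limit was higher in shZdhhc17 in all 9 clusters, so a count of 0 would bound a palmitoylation enzyme at a lower level in the control library in each of them.

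None of the 10 genes was among the 180 listed markers of the 9 neutrophil clusters, a list that holds 0.835% of the genes of the neutrophil table. In the authors' deposited table each cluster has 20 markers ranked by a marker score, the log2 fold change against all other neutrophils times a specificity that grows with the share of the cells of the cluster that hold the gene. The lowest listed score bounds a missing gene, provided that it was tested and that a gene could be listed for several clusters. The 180 listed markers were 180 distinct genes, so each marked a single cluster. Whether genes were kept for a single cluster by rule was not tested. With such a rule, a missing gene could exceed the lowest listed score of a cluster. In the authors' deposited table that score was 2.42 in Early-Stage 1, 1.12 in Early-Stage 2, 0.937 in Hypoxia/Angiogenesis, 0.734 in ECM Remodeling and 0.713 in NETosis 1. It was 0.516 in Inflammation, 0.419 in Migration 2, 0.408 in NETosis 2 and 0.229 in Migration 1 in the same authors' deposited table.

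**Figure D3:**
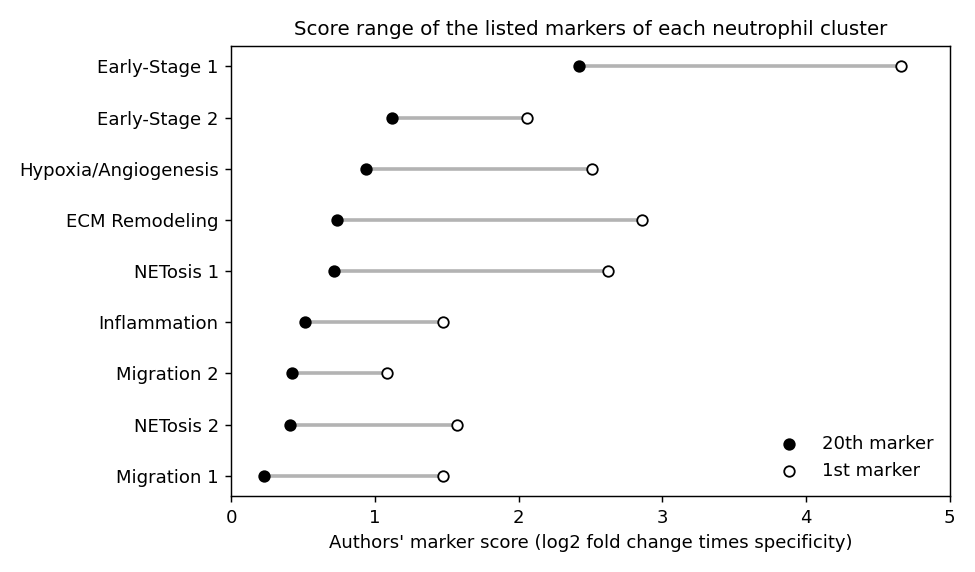
The authors' marker score (log2 fold change times specificity) of the 1st (open) and 20th (filled) listed marker of each of the 9 neutrophil clusters. The 20th score, above which no palmitoylation enzyme gene is listed, runs from 0.229 in Migration 1 to 2.42 in Early-Stage 1.

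This bound is loose for a sparse transcript. For the limits below, the specificity was computed from the share of cells by a formula that was not checked against the listed markers. By that formula, a gene in 10% of cells inside and outside Migration 1 would stay unlisted up to a log2 fold change of 2.41. In Inflammation it would stay unlisted up to 5.43. At 50% of cells the same formula gives limits of 0.611 and 1.38. Equal shares of cells inside and outside were assumed at each fold change. Whether a gene could hold both was not tested. In the authors' deposited table the listed markers were found in a median of 89.6% of the cells of their cluster, and the lowest was Trf in Migration 1 at 26.7%. The lack of Zdhhc3, Zdhhc5, Zdhhc7, Zdhhc9, Zdhhc18, Zdhhc20, Ppt1, Lypla1, Lypla2 and Abhd17a from the list therefore does not show that their levels are equal across neutrophil states.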

How the data were processed

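The series holds 1 BD Rhapsody library per group (shSCR and shZdhhc17). The authors processed reads with the Rhapsody pipeline, per the file headers, and corrected the counts for ambient RNA, then clustered the cells and named types from markers. The submitters' processing notes list Seurat 4.1.0. The deposited cell tables give whole-number counts of UMIs and detected genes per cell. The gene tables give flags per gene. The deposited marker table gives log2 fold changes, the fraction of cells with a gene (printed here as a percent) and a marker score, per the file headers. Symbols follow the GRCm38 build, per the file headers, and 97.7% matched GENCODE M21, which has the same build but may differ in gene models.

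From these were computed listing counts, depth limits (3 UMIs of the total) and bounds from the marker score. From the reference came in-frame motif matches and coding identity (Biopython 1.88, 1 principal transcript per gene, identical bases over the longer sequence), overlaps and similar transcript ends (blastn 2.17.0) and promoter CpG content. The DHHC search was tested on simulated sequences and the CpG count on simple repeats. The GXSXG search was not tested in this way. Doublets and unknown cells were left out of the 17 types, and no doublet caller was run. Of the cell numbers, 609 occur in both libraries (2.66% of shSCR and 2.83% of shZdhhc17 cells), and these cells were kept. The genes and lists were chosen with earlier results of these data known. The named genes are the 10 genes and, by counts, the other genes of the enzyme and accessory lists, named where missing from a table or flagged. Other genes named as neighbours or relatives, and the CpG comparison, were chosen after the data were seen. Planned levels per cell type, cluster and library were not computed, since expression values per gene were not used here.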

Additional observations from a re-analysis of the deposited data

How the results depend on the processing

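All 10 genes were found in both tables also when case was ignored. The share of the 33 enzyme genes in both tables (90.9%) was 87.5% for transferases and 100% for depalmitoylating enzymes alone. Of the 32 in the table of all cells, 93.8% were in that of neutrophils, and on that base the share was 75.5% of all genes and 79.9% of protein-coding genes. With cells at or above the lower quartile of UMIs (3 UMIs of fewer molecules), the lowest limit over cell types was 0.0377 in shSCR and 0.0361 in shZdhhc17 and the highest 49.1 (B cells) and 59.8 CPM (NK cells), where all cells gave 26.1 and 40.1 (both NK cells). Over neutrophil clusters the highest was 2.75 (Inflammation) and 7.43 (Hypoxia/Angiogenesis), where all neutrophils gave 1.97 (Inflammation) and 5.48 (Migration 1), and the lowest kept its value. The limit stayed lower in shSCR in 14 of 17 types and 9 of 9 clusters, while the average share of cells with a listed gene, higher in shSCR in all 17 types, was so in 14. With stricter CpG limits (0.65 and 55%), chosen after the data were seen, 7 of 9 enzyme promoters and 48.4% of genes in both tables were rich in CpG. Matching on gene IDs was not run, since the gene tables identify genes by symbol, and the alternatives on levels were not run for lack of levels here. No paired analysis was possible because each group is 1 library.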
